A study of Mus musculus with 4 samples.

Results

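Bone marrow cells of the LSK fraction with a TET2 knock-down were compared with LSK cells without it, each on a background with and without the JAK2V617F transgene. LSK cells are negative for lineage antigens and positive for Sca-1 and c-Kit, and they hold the hematopoietic stem cells and multipotent progenitors. The arrays with the knock-down were TET2KD and the double mutant (TET2KD and JAK2V617F together), and the arrays without it were WT and JAK2V617F. These are 2 arrays against 2, and all 4 arrays of the study, 1 for each genotype. In every group, E14.5 fetal liver cells of the named genotype had been transplanted into lethally irradiated mice, with C57B6 as the background strain. Marrow was taken at 10 weeks after transplantation in TET2KD and at 13 in the double mutant, against 16 in both WT and JAK2V617F. The knock-down is therefore confounded with the time since transplantation, and the effects of the 2 cannot be told apart. The design lists 5 mice per genotype. Whether their RNA was pooled, how the knock-down was made and which promoter drives the JAK2 transgene are not given in the sources used here. Host cells that survived irradiation may also be in the sort, and no measurement here separates them from donor cells.

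TET2 is a dioxygenase that oxidises 5-methylcytosine in DNA, a step towards removal of the methyl mark, which sits mostly on cytosines followed by guanine (CG). In blood-forming cells its loss is known for greater self-renewal of stem cells and a bias towards the myeloid lineages, and it is frequently mutated in myeloid neoplasms. JAK2V617F is a constitutively active form of the kinase that signals for the erythropoietin, thrombopoietin and granulocyte colony-stimulating factor receptors. The 2 lesions occur together in some patients with myeloproliferative neoplasms.

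The targeted gene was read by 3 probes on the minus strand of chromosome 3 (mm9), of which 2 passed the filter of being well above background on at least 2 arrays. The first 30 of the 60 bases of each probe are shown because the probes did not read the same change, and CG is not marked in them.
Tet2 probe at chr3:133126905-133126964: acgcacagtgatgtatagttcactttacaa
Tet2 probe at chr3:133126751-133126810: gcttacttcctgagattttggctttgttta
Tet2 probe at chr3:133176421-133176479: gaaaatccgaagaaccccttgtgcctttaa
No exon or untranslated region was assigned to these positions, since no mm9 annotation was used here. Values below are scaled log2 signals, that is log2 of the processed signal minus that array's 75th percentile, so that 0 is the 75th percentile. The first probe gave -0.72 in TET2KD and 0.43 in the double mutant, against 1.16 in WT and 0.70 in JAK2V617F. TET2KD thus had 27.3% of the WT signal, and the double mutant 82.6% of the JAK2V617F signal. The second probe gave 1.23 in TET2KD and 1.36 in the double mutant, against 2.06 in WT and 2.14 in JAK2V617F, so TET2KD had 56.3% of the WT signal and the double mutant 58.5% of the JAK2V617F signal. On both probes the 2 knock-down arrays lay below both arrays without the knock-down, but the size of the reduction differed between probes and backgrounds. The third probe read -1.77 in the double mutant, and its signal on the other 3 arrays was not well above background. Averaged over the 2 probes that passed, the Tet2 difference (mean of the knock-down arrays minus mean of the others) was -0.94 on the log2 scale (SE 0.45, limma). Jak2 had 1 probe, with 0.24 in TET2KD and 0.18 in the double mutant, against 0.10 in WT and 0.04 in JAK2V617F, and it is not known whether the transgene is read by it.

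The sort was checked against its defining genes. Kit, the gene of c-Kit, had 3.82 in TET2KD and 2.37 in the double mutant, against 4.19 in WT and 2.93 in JAK2V617F. Ly6a, the gene of Sca-1, had 3.42 and 2.71 in TET2KD and the double mutant, against 2.13 and 3.32 in WT and JAK2V617F. Both genes were above the 75th percentile on all 4 arrays, and their groups overlapped. Of the lineage genes, Itgam (CD11b) was also above the 75th percentile on all 4 arrays, between 2.23 and 2.95, and its groups overlapped too. Cd4 was above it as well and its groups did not overlap, with 0.85 in TET2KD and 0.58 in the double mutant, against 0.34 in WT and 0.44 in JAK2V617F. Xist, the RNA made from the inactive X chromosome of females, had -1.66 in TET2KD and -3.45 in the double mutant, against 3.73 in WT and 1.98 in JAK2V617F. Of its 2 probes, 1 was not well above background in either knock-down array. The other read 1.62 in TET2KD and -1.53 in the double mutant, against 5.57 in WT and 4.05 in JAK2V617F. The Y-linked genes did not all run the opposite way. Ddx3y had -1.26 in TET2KD and -0.53 in the double mutant, against -5.07 (not well above background) in WT and -1.92 in JAK2V617F, while Uty was not well above background in either knock-down array and was measured in both others. The sex of donors and hosts is not given in the labels, and its part in the differences that follow was not tested.

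A feature here is a named gene (the mean of its probes that passed) or a probe that no table names. Of 25926 features, both knock-down arrays lay above both others for 4171 (16.1%) and below both for 4180 (16.1%). Leaving out features in which 2 compared arrays were both dim, 4090 (15.8%) were above and 4018 (15.5%) below. At least 2-fold separated the nearest arrays of the 2 sides for 523 features with the knock-down arrays higher (2.02%) and for 405 with them lower (1.56%). Among the 13758 named genes, 1987 (14.4%) were above, 2230 (16.2%) below, and 211 (1.53%) and 208 (1.51%) were at least 2-fold apart. The 2 JAK2V617F-carrying arrays lay on one side of both others for more features, 9885 (38.1%), than the 8351 (32.2%) for the knock-down arrays. For arrays that differ only at random, a split of 2 against 2 separates a share of 0.333 of features in either direction. The 32.2% for the knock-down arrays was no larger than that, so the number of separated features does not show an effect of the knock-down.

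The differences on the 2 backgrounds were almost uncorrelated across features. Across all features, TET2KD minus WT and double mutant minus JAK2V617F had a Pearson r of 0.039 and the same sign for 51.8%. The 2 differences share no array, but features are not independent replicates. Over the 19192 features above background on all arrays, r was 0.052 and 52.4% had the same sign. Where both differences were at least 4-fold, which held for 140 features, 58.6% had the same sign. Fits with limma, which take the disagreement between the 2 backgrounds as error on 1 residual degree of freedom, gave 0 features in either direction at an adjusted p under 0.05 (Benjamini-Hochberg, smallest adjusted p 0.646). At an unadjusted p under 0.05 there were 850 higher (3.28%) and 829 lower (3.2%). An exact permutation test of 2 arrays against 2 cannot give a two-sided p below 0.333. On simulated data the fit recovered none of the planted changes, so its 0 calls do not show that no gene differed. No single gene below is therefore called, and "higher", "lower", "above" and "below" describe where these 4 arrays lie.

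**Figure D1:**
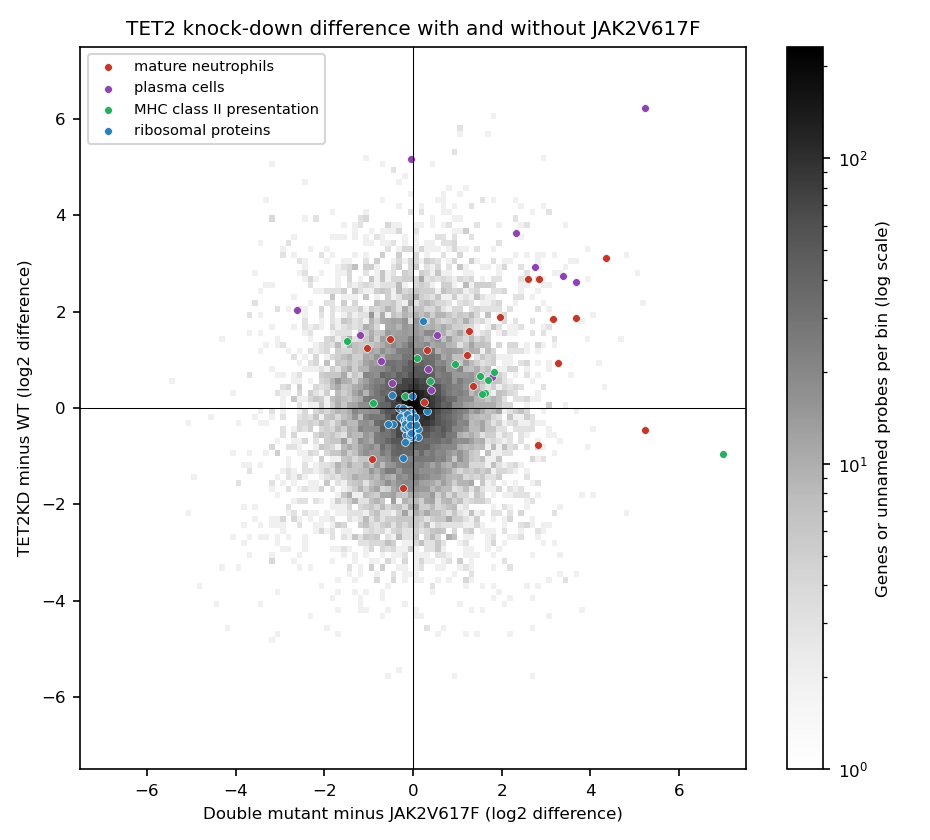
Each bin counts features by their log2 difference between the double mutant and JAK2V617F (horizontal axis) and between TET2KD and WT (vertical axis), with darker bins holding more features. Coloured points are members of 4 gene lists. The cloud has almost no slope (Pearson r 0.039 over 25926 features), neutrophil and plasma cell genes scatter mainly to the upper right, and ribosomal protein genes sit close to the origin, mostly in the lower left.

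How far 1 probe speaks for its gene was read from genes with several probes. Where the first of 2 probes under 100 bases apart separated the arrays, the other probe did so the same way in 85 of 123 pairs and the opposite way in 3. For probes at least 500 bases apart, it did so the same way in 109 of 529 pairs (20.6%) and the opposite way in 62. Each of the single genes singled out by size below rests on 1 probe that passed. With normexp background correction the differences of all 42 of these genes were smaller.

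Among genes measured on all 4 arrays, the widest gap with the knock-down arrays higher was that of Slc4a1, which encodes the anion exchanger band 3 of the red cell membrane. It had 2.17 in TET2KD and 1.94 in the double mutant, against -2.39 in WT and -2.59 in JAK2V617F, a 23.4-fold difference of means and a 20.1-fold gap between the nearest arrays. Sec14l1 had 1.84 and 1.5 in TET2KD and the double mutant, against -1.81 and -2.08 in WT and JAK2V617F. In Jmy, a cofactor of p53 and actin nucleator, the 2 knock-down arrays had 0.66 and 0.72, against -2.53 in WT and -2.47 in JAK2V617F. With normexp the difference of means of Slc4a1 was 6.95-fold, that of Sec14l1 4.48-fold and that of Jmy 3.02-fold. In these 3 genes the arrays of each side lay much closer to each other than to the other side.

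Next in order came Hba-a1, which encodes an alpha globin chain, with 4.13 in TET2KD and 2.64 in the double mutant, against 0.21 in WT and -2.04 in JAK2V617F. Plekhm3 was 9.94-fold and Tspyl3 6.69-fold higher in means. Jchain, the joining chain of secreted IgM and IgA, was 8.35-fold higher, and Chil3, a chitinase-like protein of neutrophil granules and activated macrophages, 6.22-fold. Bace1 encodes the beta-secretase and was 9.41-fold higher, with 3.24 in TET2KD and 2.50 in the double mutant, against -1.29 in WT and 0.55 in JAK2V617F. Clec4d, a C-type lectin receptor of myeloid cells, was 5.35-fold higher. The retinoic acid receptor gene Rara, a regulator of granulocyte maturation, had 0.85 in TET2KD and 2.33 in the double mutant, against -1.41 in WT and -1.01 in JAK2V617F. The other members of the 15 were Wfdc21, Rhoq, Rps6kc1 and Clec2i, 4.1-fold to 9.43-fold higher in means. With their dim probes averaged in, the difference of Rara was 0.83, that of Rps6kc1 1.29 and that of Tspyl3 2.16 on the log2 scale.

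On the lower side the widest gap was that of Tgfbr3, the gene of betaglycan, a co-receptor for TGF-beta. It had -1.13 in TET2KD and -1.99 in the double mutant, against 1.62 in WT and 1.65 in JAK2V617F. Slc2a9, a urate transporter, had -2.39 and -2.59 in TET2KD and the double mutant, against 1.83 and 0.10 in WT and JAK2V617F. Slx4, the scaffold of structure-specific DNA nucleases, had -1.30 and -1.12 in the knock-down arrays, against 1.22 in WT and 2.15 in JAK2V617F. Each of these 3 genes was below the 75th percentile in both knock-down arrays and above it in both others. Xist was outside this ranking, since 1 of its 2 probes was not well above background in either knock-down array. Its gap was -3.64, or -2.56 with dim probes at the floor, against -2.74 for Tgfbr3.

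Nprl2, a subunit of the GATOR1 complex that restrains mTORC1, was 4.36-fold lower in means, with -1.56 in TET2KD and -1.79 in the double mutant, against 0.45 in WT and 0.44 in JAK2V617F. Sema4b was 8.42-fold lower and Mpzl1 7.7-fold lower. Dhx36, a helicase that unwinds G-quadruplexes, was 5.88-fold lower, and Nup43, a nuclear pore component, 5.58-fold. Tap2, a subunit of the transporter that loads peptides onto MHC class I, had 0.28 and 0.23 in TET2KD and the double mutant, against 1.98 and 2.10 in WT and JAK2V617F. Tap2 is one of the tightest of the set, since the arrays of each side differ by less than the 0.142 to 0.151 SD of repeated spots. Hmgxb3, Exo5, Zfp39, Enoph1, Rnf169 and Ccdc61 completed the 15, 4.56-fold to 6.96-fold lower. With its dim probe averaged in, Zfp39 was 2.43-fold lower, against 4.56-fold without.

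**Figure D2:**
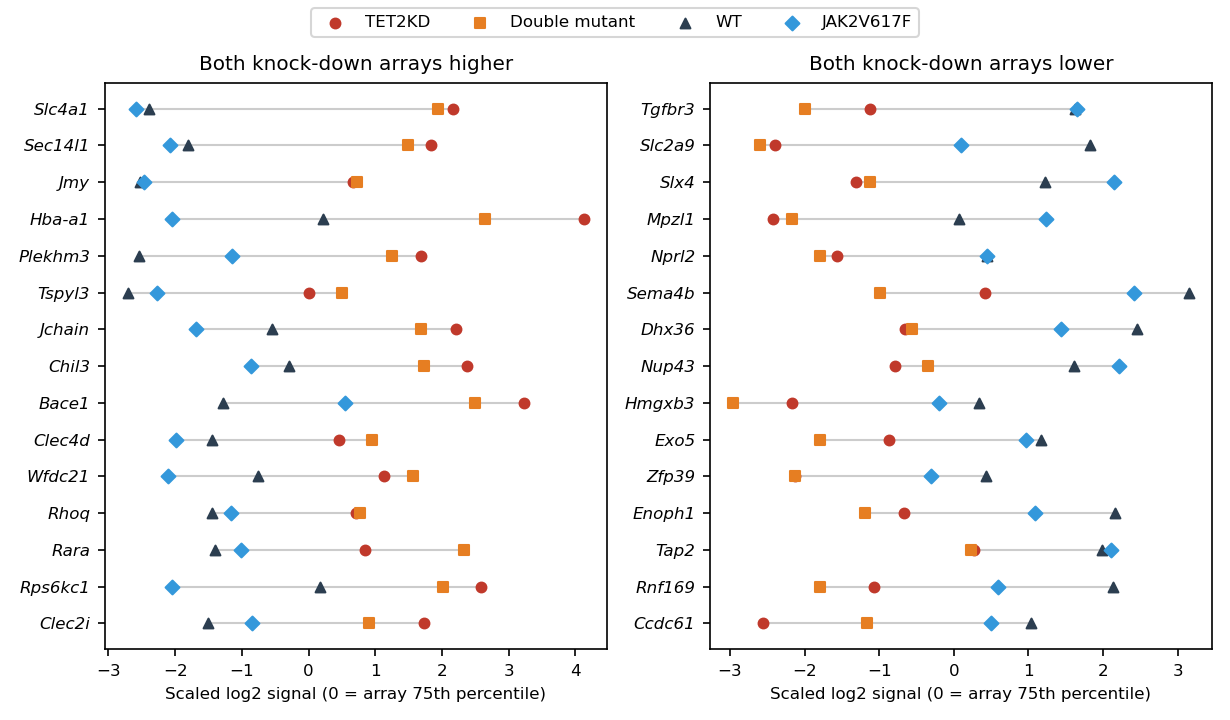
Scaled log2 signal (horizontal axis, 0 is the array's 75th percentile) of the 15 genes each way with the widest gap, ordered from the widest at the top; each symbol is 1 array and there are no replicates. In the left panel both knock-down arrays (red circles, orange squares) lie above both others (dark triangles, blue diamonds), and in the right panel they lie lower, as the rule requires.

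Other genes were measured on 1 side only, so only a bound can be given: the bright side against the lowest signal well above background on the dim arrays. The bounds belong to the processed signal as deposited: with normexp the fold difference of all 12 genes was under its bound, between 2.59 and 6.06. Gpr107 was at least 25.1-fold higher with the knock-down, the zinc finger gene Zfp108 at least 21.4-fold, Hba-a2 at least 19.1-fold, the olfactory receptor gene Olfr1380 at least 13.2-fold and the splicing factor gene Tfip11 at least 12.9-fold. Tnfrsf17, the plasma cell survival receptor BCMA, was at least 12.5-fold higher. On the lower side were Otud3 (at least 10.0-fold), the copper transporter gene Slc31a2 (at least 8.67-fold), Rbak, Ccdc189, Stard4 and Vpreb1. A second Slc31a2 probe that did not pass ran the other way, with -1.07 in the double mutant and a signal not well above background on the other 3 arrays. A second Stard4 probe was well above background in WT only. Vpreb1, a surrogate light chain of the pre-B cell receptor, was at least 7.36-fold lower, but its brighter side was uneven, with 1.95 in WT and -2.03 in JAK2V617F.

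Gene lists are described by the members that passed the filter and by how many lay above or below with a measured order. Over all named genes these shares were 14.4% above and 16.2% below. The median difference of all named genes was -0.023. Throughout, fewer cells of a type and less RNA per cell cannot be told apart in these bulk samples.

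**Figure D3:**
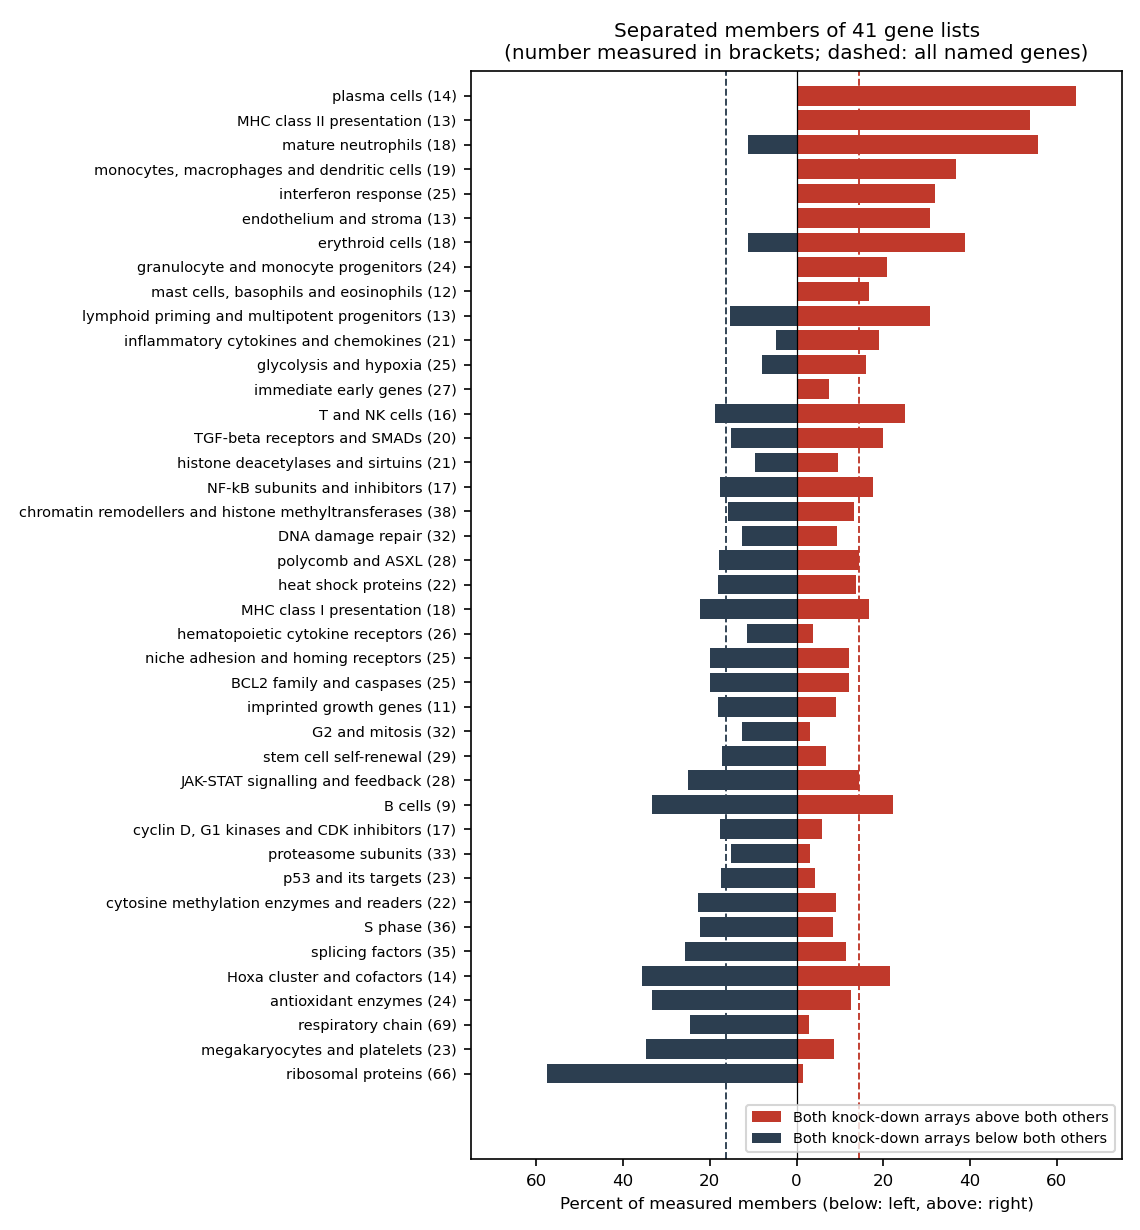
Percent of the measured members of 41 gene lists in which both knock-down arrays lay above (right, red) or below (left, dark) both others, sorted by the difference of the 2 percentages. Dashed lines mark the same shares over all named genes, 14.4% above and 16.2% below; plasma cell, MHC class II and neutrophil genes reach furthest right and ribosomal protein genes furthest left. Of the 9 plasma cell members drawn as above, 4 could only lie above.

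Genes of mature neutrophils were mostly higher with the knock-down. Of 18 measured (21 listed), 10 lay above and 2 below, 6 were at least 2-fold apart, and the median difference was 1.29. The median was 1.23 for TET2KD minus WT and 1.65 for double mutant minus JAK2V617F, and 12 members were positive in both. The list median ran from 0.83 to 1.41 over the scaling and filter alternatives. Ltf, the gene of lactoferrin in secondary granules, had 1.56 in TET2KD and 0.52 in the double mutant, against -1.54 in WT and -3.83 (not well above background) in JAK2V617F. Ngp, a neutrophil granule protein, had 3.15 and 2.55 in TET2KD and the double mutant, against 1.26 and 0.58 in WT and JAK2V617F. Camp, the cathelicidin antimicrobial peptide, had 1.35 and 1.28 in TET2KD and the double mutant, against -0.24 and 0.02 in WT and JAK2V617F. All 3 are granule genes that are switched on late in granulocyte maturation, and their groups do not overlap.

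Chil3 had 2.38 in TET2KD and 1.73 in the double mutant, against -0.29 in WT and -0.87 in JAK2V617F. S100a8, a subunit of calprotectin, had 3.88 and 3.19 in TET2KD and the double mutant, against 2.79 and 1.97 in WT and JAK2V617F. Its partner S100a9 was not separated, at 5.73 in TET2KD and 5.00 in the double mutant, against 5.27 in WT and 3.66 in JAK2V617F. Lcn2, another granule gene, was highest in WT (3.91) and lowest in JAK2V617F (0.74), with 3.13 in TET2KD and 3.55 in the double mutant between them. Padi4 and Il1r2 were the 2 members below. Padi4, which citrullinates histones, had -1.46 in TET2KD and -1.66 in the double mutant, against -0.41 in WT and -0.73 in JAK2V617F.

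The summed scaled signal of the neutrophil list (linear, 1 is the 75th percentile) was 112 in TET2KD and 80.0 in the double mutant, against 77.2 in WT and 29.7 in JAK2V617F, so on this sum the double mutant and WT were nearly level. S100a9 made up 39.9% to 49.8% of it, and without S100a9 the sum was 59.4 in TET2KD and 48.1 in the double mutant, against 38.7 in WT and 17.1 in JAK2V617F. The surface markers that a lineage gate uses for these cells, Ly6g and Itgam, were not separated. An LSK gate should leave mature neutrophils out, and whether such cells remained in the sort was not tested. Fpr2 passed the filter through the knock-down arrays alone, and without it 9 of 17 members lay above. Over the 12 members above background on all 4 arrays, 6 lay above and 2 below.

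Genes of granulocyte and monocyte progenitors were mostly not separated. Of 24 measured, 5 lay above (20.8%, against 14.4% of all named genes) and 0 below (against 16.2%), with a median of 0.60. Lyz2, the lysozyme of myeloid cells, had 0.90 in TET2KD and 1.08 in the double mutant, against -0.62 in WT and -0.33 in JAK2V617F. Elane, neutrophil elastase, had 3.34 and 3.21 in TET2KD and the double mutant, against 0.70 and 2.96 in WT and JAK2V617F. Fcgr2b, Fcgr3 and Cebpe were the other 3. The primary granule genes Mpo, Prtn3 and Ctsg were not separated, because JAK2V617F reached or passed TET2KD in each: Ctsg had 4.50 in TET2KD and 6.22 in the double mutant, against 2.62 in WT and 5.91 in JAK2V617F. Without the WT array the list median was -0.064.

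Plasma cell genes lay above more often than below. All 14 listed genes were measured, 9 lay above and 0 below, and the median difference was 1.12 (0.56 to 1.13 over the scaling and filter alternatives). Tnfrsf17 had 1.01 in TET2KD and 0.06 in the double mutant, against -5.23 in WT and -5.17 in JAK2V617F, both not well above background. Jchain had 2.21 and 1.68 in TET2KD and the double mutant, against -0.54 and -1.69 in WT and JAK2V617F. Cd38 encodes an ectoenzyme that is not specific to plasma cells. It had -0.21 and 0.47 in TET2KD and the double mutant, against -3.14 (not well above background) and -2.28 in WT and JAK2V617F. These 3 genes separated the arrays by at least 2-fold.

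Mzb1, a chaperone for immunoglobulin assembly, was at least 6.39-fold higher, and Irf4, the transcription factor of plasma cell fate, at least 2.41-fold. Both, with Tnfrsf17 and Slamf7, passed the filter through the knock-down arrays alone, so they could only differ upwards. Without these 4, 5 of 10 members lay above. Of the 5 members above background on all 4 arrays, 4 lay above, with a median of 0.58. The secretory regulators Xbp1 and Prdm1 were above by narrow gaps. Xbp1 had 2.44 in TET2KD and 2.71 in the double mutant, against 1.62 in WT and 2.37 in JAK2V617F. The list's median was 1.78 for TET2KD minus WT and 0.48 for double mutant minus JAK2V617F. The summed scaled signal was 29.9 in TET2KD and 24.8 in the double mutant, against 15 in WT and 15.5 in JAK2V617F. Sdc1, the surface marker CD138 of plasma cells, was not separated, with -0.028 in TET2KD and -2.09 in the double mutant, against -5.21 (not well above background) in WT and -2.04 in JAK2V617F. Derl3, Ell2, Fkbp11 and Tnfrsf13b were not separated either. Their TET2KD minus WT differences were 1.51, 2.03, 0.97 and 0.53, and those of double mutant minus JAK2V617F were -1.19, -2.62, -0.73 and -0.48. Derl3, Ell2 and Fkbp11 were not well above background in the double mutant. Whether plasma cells were in the sort was not tested. B cell genes did not follow. Of 9 measured, 2 lay above and 3 below. Vpreb1 passed the filter through the arrays without the knock-down alone, and without it 2 of 8 members lay below. Cd79b, a signalling chain of the B cell receptor, had -1.54 in TET2KD and -1.58 in the double mutant, against 0.69 in WT and -0.60 in JAK2V617F. The 2 above were Blnk and Cd24a. Blnk had -1.16 in TET2KD and -0.83 in the double mutant, against -3.60 (not well above background) in WT and -2.12 in JAK2V617F. Cd24a was above by a gap of 0.035.

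MHC class II genes, which present peptides to CD4 T cells, were higher with the knock-down on both backgrounds. Of 13 measured, 7 lay above and 0 below, with a median of 0.92 (0.55 for TET2KD minus WT and 0.94 for double mutant minus JAK2V617F). H2-Ab1 had 4.46 in TET2KD and 4.13 in the double mutant, against 3.55 in WT and 3.19 in JAK2V617F. Cd74, the invariant chain, had 4.91 and 4.85 in TET2KD and the double mutant, against 4.32 and 3.16 in WT and JAK2V617F. H2-Eb1 had 0.50 and 0.80 in TET2KD and the double mutant, against -0.24 and -1.02 in WT and JAK2V617F. In each, JAK2V617F was the lowest array, and the gap between the nearest arrays was under 2-fold. H2-Aa, H2-Oa, H2-DMa and Ctss were the other 4 above. The class II transactivator Ciita, which drives these genes, was not separated, with 2.78 in TET2KD and 2.31 in the double mutant, against 2.53 in WT and 2.50 in JAK2V617F. The count above was 7 under every one of the scaling and filter alternatives, and the median ran from 0.52 to 0.94, being 0.52 with normexp. The list of monocytes, macrophages and dendritic cells, which shares H2-Ab1, H2-Aa, H2-Eb1, Cd74 and Ctss with it, had 7 of 19 measured members above and 0 below. The other 2 were Lyz1 and Clec9a, a receptor of cross-presenting dendritic cells that was at least 2.13-fold higher. Clec9a passed the filter through the knock-down arrays alone, and without it 6 of 18 members lay above.

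Genes induced by interferon were higher in part. Of 25 measured, 8 lay above and 0 below, but the median was 0.26 and 10 members had opposite signs on the 2 backgrounds. Isg15, a ubiquitin-like protein, had -1.15 in TET2KD and -1.26 in the double mutant, against -2.48 in WT and -2.01 in JAK2V617F. Oasl2 had -1.17 and -0.30 in TET2KD and the double mutant, against -2.09 and -2.92 in WT and JAK2V617F, and Ifi27l2a had -1.06 and -0.98 in TET2KD and the double mutant, against -2.62 and -1.95 in WT and JAK2V617F. Oasl1, Ifi35, Ddx58, Zbp1 and Ifih1 were also above, the last by under 0.01 log2 units. Stat2, Rsad2 and Mx1 were not separated; Mx1 had -1.92 in TET2KD and -4.33 (not well above background) in the double mutant, against -1.38 in WT and -2.32 in JAK2V617F. Isg15, Oasl2 and Ifi27l2a were below the 75th percentile on all 4 arrays.

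**Figure D4:**
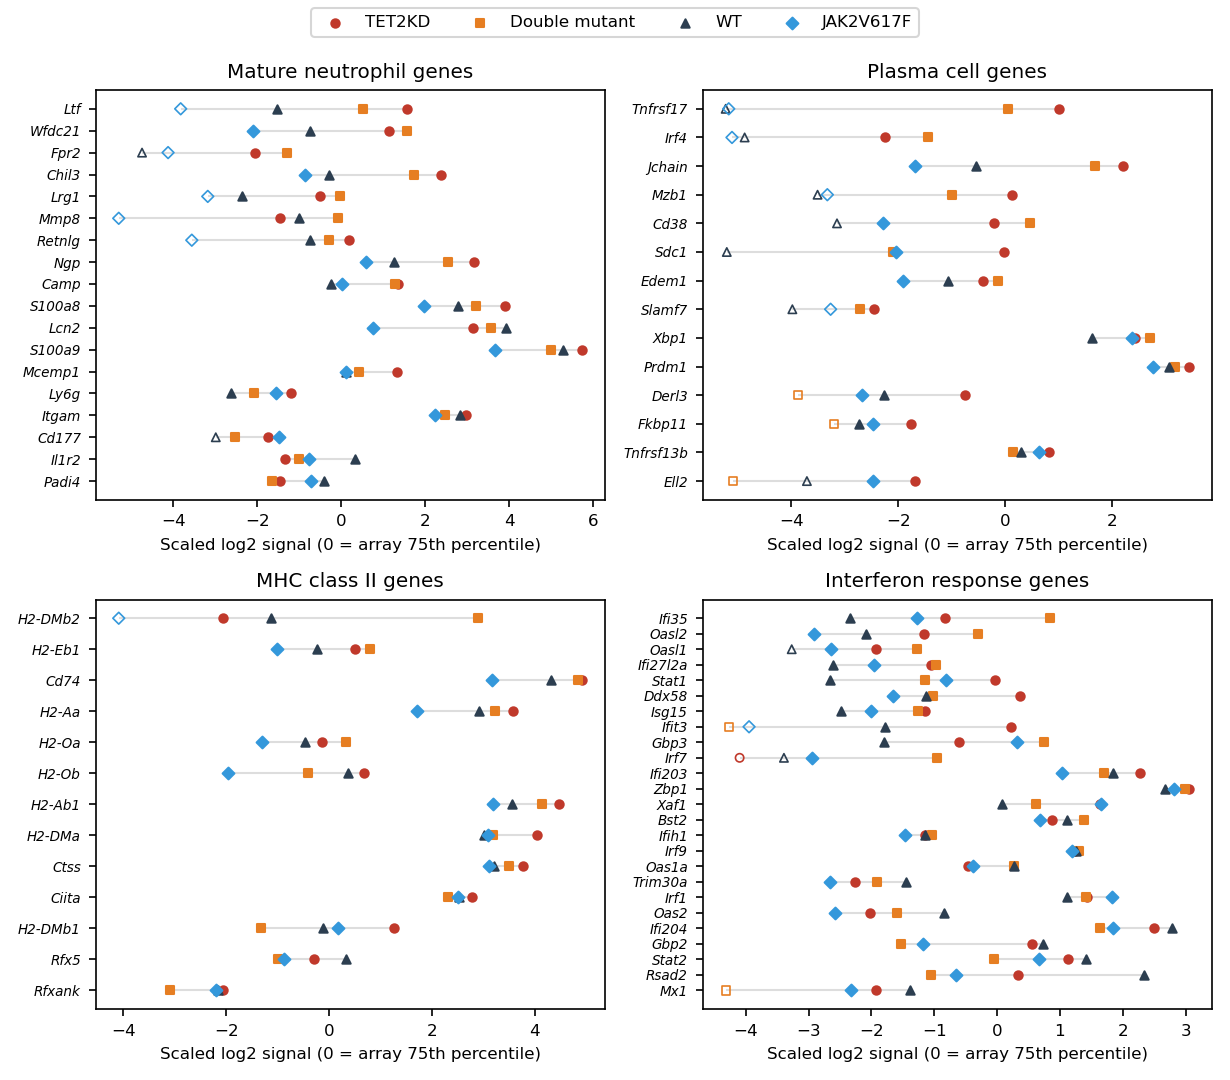
Scaled log2 signal of each measured member of 4 lists, sorted by the difference between the knock-down arrays and the others, largest at the top of each panel. Each symbol is 1 array; open symbols are not well above background. In most of the upper rows of each panel the red circles and orange squares lie right of the dark triangles and blue diamonds, while in the lower rows the arrays mix.

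The 250 bases before the start of 4 of these genes are shown in GRCm38.p6 from RefSeq, with each CG in capitals, because CG is the context of the methylation that TET2 acts on. Methylation was not measured here.
Ltf at chr9:111019042-111019291 (plus strand): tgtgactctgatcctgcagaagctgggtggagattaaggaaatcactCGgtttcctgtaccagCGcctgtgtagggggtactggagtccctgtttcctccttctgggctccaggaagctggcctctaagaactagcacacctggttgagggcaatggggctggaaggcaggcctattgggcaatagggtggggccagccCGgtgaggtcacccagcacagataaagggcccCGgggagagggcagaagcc
Tnfrsf17 at chr16:11313559-11313808 (plus strand): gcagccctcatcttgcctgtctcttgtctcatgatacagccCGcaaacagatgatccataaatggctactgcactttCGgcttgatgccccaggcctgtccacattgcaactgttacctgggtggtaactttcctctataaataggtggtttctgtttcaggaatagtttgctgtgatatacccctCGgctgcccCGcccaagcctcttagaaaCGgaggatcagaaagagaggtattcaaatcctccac
Isg15 at chr4:156200819-156201068 (minus strand): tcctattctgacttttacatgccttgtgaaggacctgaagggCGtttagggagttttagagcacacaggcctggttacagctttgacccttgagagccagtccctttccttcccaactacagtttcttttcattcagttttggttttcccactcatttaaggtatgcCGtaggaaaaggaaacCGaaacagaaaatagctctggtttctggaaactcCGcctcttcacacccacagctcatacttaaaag
Rps15, a ribosomal protein gene of the lower side, at chr10:80292181-80292430 (plus strand): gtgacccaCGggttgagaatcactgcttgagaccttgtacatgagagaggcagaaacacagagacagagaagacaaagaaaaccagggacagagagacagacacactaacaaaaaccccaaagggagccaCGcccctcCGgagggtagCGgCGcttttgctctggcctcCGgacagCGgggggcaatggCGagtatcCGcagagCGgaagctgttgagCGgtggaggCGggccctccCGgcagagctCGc
The Ltf window holds 4 CG, that of Tnfrsf17 holds 5, that of Isg15 holds 4 and that of Rps15 holds 14. Over 27025 genes with such a window the median was 6 CG (quartiles 2 and 16). The named genes that were measured had a median of 14 (quartiles 6 and 22), with a window for 79.0% of them. The 17 neutrophil members with a window had a median of 3 (quartiles 2 and 4), and the 57 respiratory chain members a median of 15 (quartiles 10 and 20). The 175 of 211 named genes at least 2-fold higher that had a window had a median of 14. For the genes at least 2-fold lower, for the interferon list and for the ribosomal list under 80% had a window, so a comparison is void for them. It is narrowly void for the named genes measured too, so no set is compared with their median. The letters GAAA, 2 bases of any kind and GAAA again, the core of the interferon-stimulated response element, were searched on both strands with overlaps counted. They occur 3 times before Isg15, 1 time before Tnfrsf17 and 0 times before Ltf and Rps15, and 3.04% of all windows hold them. A match is a description of the letters, not of binding.

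Erythroid genes divided. Of 18 measured, 7 lay above and 2 below, with a median of 0.32 (0.14 to 0.35 over the scaling and filter alternatives). Hba-a2 passed the filter through the knock-down arrays alone, and without it 6 of 17 members lay above. Besides Slc4a1 and Hba-a1, Hba-a2 had 2.39 in TET2KD and -0.11 in the double mutant and was not well above background in WT or JAK2V617F. Hba-a1 and Hba-a2 are near-identical copies, so which of them the probes read is uncertain. Hbb-b1, a beta globin, had -0.01 in TET2KD and -1.77 in the double mutant, against -4.49 (not well above background) in WT and -2.26 in JAK2V617F. Hbb-bt, another beta globin of similar sequence, ran the other way and was not separated, with 1.85 in TET2KD and 2.37 in the double mutant, against 2.37 in WT and 3.29 in JAK2V617F. Band 3 and the globins are genes of late red cell precursors; TET2KD was the highest array for Slc4a1, Hba-a1, Hba-a2 and Hbb-b1 and the lowest for Hbb-bt. Ermap, Ank1 and Hemgn were above by at most 0.30 log2 units. Against them, Gata1, the master regulator of the erythroid and megakaryocyte lineages, had -2.51 in TET2KD and 0.76 in the double mutant, against 2.18 in WT and 0.95 in JAK2V617F. Fech, which inserts iron into heme, was the other gene below, with -1.0 in TET2KD and -2.04 in the double mutant, against 0.05 in WT and -0.65 in JAK2V617F. The whole list summed to 1480 in TET2KD and 1283 in the double mutant, against 1216 in WT and 1233 in JAK2V617F. Hemgn alone made up 95.1% to 96.7% of each sum, and without it the sum was 71.8 in TET2KD and 48.6 in the double mutant, against 47.2 in WT and 40.8 in JAK2V617F.

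Megakaryocyte and platelet genes lay below more often than above, 8 against 2 of 23 measured, with a median of -0.22. The median was 0.055 over probes above background on all 4 arrays and with the brightest probe per gene. Gp1ba and Gp9, parts of the platelet von Willebrand factor receptor, were not well above background in either knock-down array and were at least 2.35-fold and 1.61-fold lower. Both passed through the arrays without the knock-down alone, and without them 6 of 21 members lay below. Fli1, a transcription factor of this lineage, had -0.17 in TET2KD and -0.10 in the double mutant, against 1.42 in WT and 0.58 in JAK2V617F. Itgb3 had 1.0 and 0.80 in TET2KD and the double mutant, against 1.65 and 1.68 in WT and JAK2V617F. Treml1 and Cavin2 were the 2 above. The list median differed in sign between backgrounds, 0.64 for TET2KD minus WT and -0.69 for double mutant minus JAK2V617F, a difference that was not tested.

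Stem cell genes lay below about as often as named genes in general. Of 29 measured, 5 lay below (17.2%, against 16.2% of all named genes) and 2 above (6.9%, against 14.4%), with a median of -0.54. Erg, an ETS factor that maintains stem cells, had -2.01 in TET2KD and -1.96 in the double mutant, against -0.01 in WT and -0.79 in JAK2V617F. Bmi1, a polycomb protein needed for self-renewal, had -2.67 and -1.39 in TET2KD and the double mutant, against -0.01 and -1.14 in WT and JAK2V617F. Procr, the surface receptor EPCR, had 1.14 and 1.39 in TET2KD and the double mutant, against 2.52 and 1.5 in WT and JAK2V617F. Bmi1 and Procr were below by gaps of 0.26 and 0.11. One of the 2 Erg probes was not well above background in either knock-down array, which leaves a gap of 0.26 for the gene with those arrays at the floor, and on the other probe TET2KD (0.69) and JAK2V617F (0.67) were level. Meis1 was not separated, with 2.45 in TET2KD and 0.19 in the double mutant, against 3.17 in WT and 2.14 in JAK2V617F, and without the double mutant array the list median was 0.095. Cd34, absent from the surface of the most primitive adult mouse stem cells, had 4.43 and 4.30 in TET2KD and the double mutant, against 4.93 and 4.73 in WT and JAK2V617F.

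Hoxa genes and their cofactors had 5 of 14 measured members below and 3 above (median -0.44, and -0.44 to -0.10 over the scaling and filter alternatives). Pbx3, a partner of HOX proteins, had -3.85 (not well above background) in TET2KD and -4.09 in the double mutant, against -1.89 in both WT and JAK2V617F. The double mutant value also lay under that array's floor (-3.19). With dim probes at the floor the Pbx3 gap was -0.90, against -1.96 without. Hoxa5 had -0.91 and -1.51 in TET2KD and the double mutant, against -0.22 and -0.27 in WT and JAK2V617F. Pbx2 ran the other way, with 1.62 in TET2KD and 0.69 in the double mutant, against -0.24 in WT and -1.42 in JAK2V617F. Hoxa7 and Pbx4 were among the others below, and Meis3 and Hoxa2 were above. Hoxa2 passed the filter through the knock-down arrays alone, and without it 2 of 13 members lay above.

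With the scaling used here, ribosomal protein genes had the largest share of members below of all lists, and their differences were small. Of 66 measured, 38 lay below and 1 above, and 53 were negative on both backgrounds. The median difference was only -0.20, with -0.28 for TET2KD minus WT and -0.10 for double mutant minus JAK2V617F. Rps15 had 7.85 in TET2KD and 7.86 in the double mutant, against 8.21 in WT and 7.94 in JAK2V617F. Rpsa had the widest gap, 0.34, with 3.25 and 3.11 in TET2KD and the double mutant, against 3.59 and 3.67 in WT and JAK2V617F. These gaps are of the order of the spread of repeated spots on 1 array (SD 0.142 to 0.151). Rpl13a had the largest difference on the lower side, -0.63, but its 3 probes disagreed: 2 were lowest in TET2KD and 1 in the double mutant. Rpl21 was the member above and had the largest difference of all, 1.02. Its 3 probes disagreed too, and the brightest of them read 5.65 in TET2KD and 5.57 in the double mutant, against 5.83 in WT and 5.71 in JAK2V617F. The summed signal was 5791 in TET2KD and 5841 in the double mutant, against 7148 in WT and 6191 in JAK2V617F. The number below ran between 19 and 43 over the scaling and filter alternatives. It was lowest with quantile scaling, where 19 of 66 lay below and 2 above. In that setting the Hoxa list, with 5 of 14 below, had a larger share.

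Respiratory chain genes were lower mainly in TET2KD. Of 69 measured, 17 lay below and 2 above (median -0.26), with -0.45 for TET2KD minus WT and -0.12 for double mutant minus JAK2V617F. Ndufb2, of complex I, had 1.0 in TET2KD and 0.97 in the double mutant, against 2.27 in WT and 1.77 in JAK2V617F. Uqcrc1, of complex III, had 1.30 and 2.0 in TET2KD and the double mutant, against 2.53 and 2.56 in WT and JAK2V617F. Sdha, the flavoprotein of complex II, had 2.17 and 2.09 in TET2KD and the double mutant, against 3.20 and 2.52 in WT and JAK2V617F. Subunits of complexes I, II and III were thus among those below. So were Cox8a, Cox7c and Cox6b1 of complex IV and Atp5j2, Atp5h and Atp5g2 of complex V. The complex I subunits Ndufs1 and Ndufa6 were above. Without the TET2KD array the list median was 0.018.

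**Figure D5:**
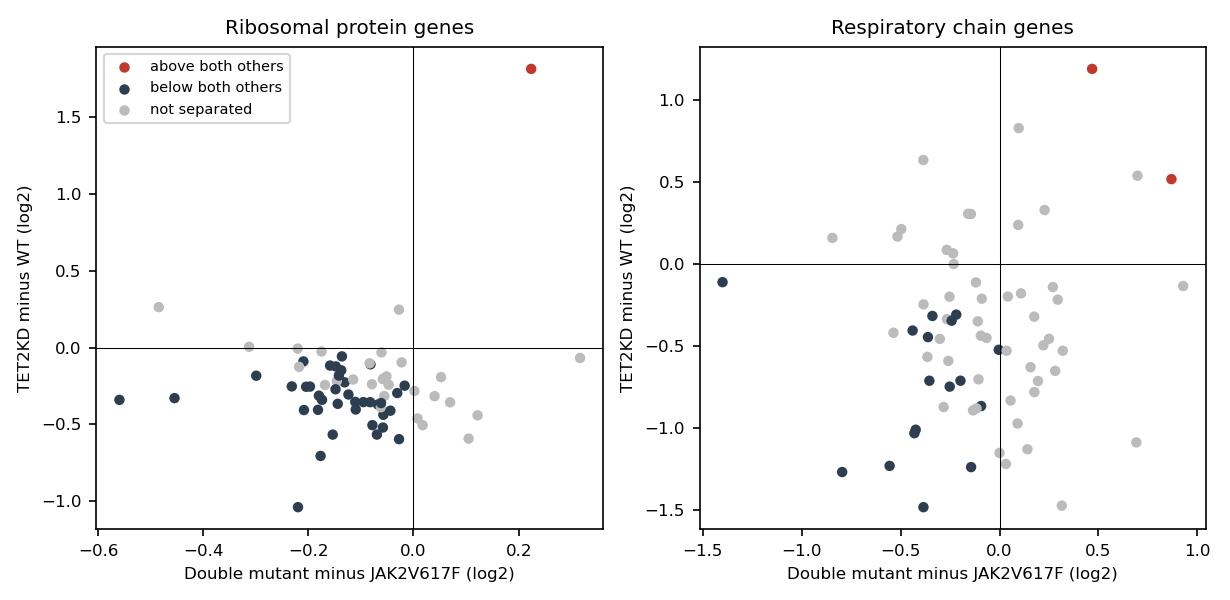
Log2 difference of each measured member between the double mutant and JAK2V617F (horizontal axis) and between TET2KD and WT (vertical axis); the axes of the 2 panels differ. Dark points lie below both arrays without the knock-down, red points above, grey points are not separated. Ribosomal protein genes cluster just below and left of the origin, and respiratory chain genes spread further down than left.

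The enzymes and readers of cytosine methylation, the pathway of TET2 itself, had 5 of 22 measured members below and 2 above (median -0.21). Smug1 passed the filter through the arrays without the knock-down alone, and without it 4 of 21 members lay below. That count still includes Tet2, the targeted gene, and 16.2% of all named genes lay below. The counts therefore do not show a shift of this list beyond Tet2. Besides Tet2, Dnmt3b, which methylates new sites, was below, with 0.69 in TET2KD and 1.21 in the double mutant, against 2.32 in WT and 2.05 in JAK2V617F. Tdg, the glycosylase that removes the oxidised bases TET enzymes make, had 0.42 and 0.19 in TET2KD and the double mutant, against 0.91 and 1.02 in WT and JAK2V617F. Smug1, another glycosylase, was at least 1.77-fold lower, being not well above background in either knock-down array. Ogt, which binds TET2 and adds N-acetylglucosamine to proteins, was the fifth below. The methyl-CG reader Mbd2 was above, with 3.41 in TET2KD and 3.72 in the double mutant, against 2.89 in WT and 3.27 in JAK2V617F, as was Uhrf2 by 0.07. The paralogs of Tet2 were not separated. Tet1 had 0.15 in TET2KD and 0.39 in the double mutant, against 1.41 in WT and -0.46 in JAK2V617F, and Tet3 had -0.22 and 0.92 in TET2KD and the double mutant, against 0.65 and 1.23 in WT and JAK2V617F. Dnmt1, Dnmt3a, Idh1 and Idh2 were not separated either.

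In JAK-STAT signalling 7 of 28 measured members lay below and 4 above (median -0.14). Cish, a feedback inhibitor induced by STAT5, had -0.74 in TET2KD and -0.08 in the double mutant, against 1.05 in WT and 1.41 in JAK2V617F, a 3.11-fold difference and the one member of this list at least 2-fold apart. Socs7 had 0.78 and 1.85 in TET2KD and the double mutant, against 3.77 and 2.56 in WT and JAK2V617F. Jak3, the kinase of the common gamma chain receptors, had 0.34 in both knock-down arrays, against 1.12 in WT and 1.03 in JAK2V617F. Stat5a was above by 0.11. The list of hematopoietic cytokine receptors had 3 of 26 measured members below and 1 above. The 1 above was Il10ra, the interleukin 10 receptor, with 0.59 in TET2KD and 1.37 in the double mutant, against -3.5 (not well above background) in WT and -1.69 in JAK2V617F. Within the TGF-beta list, Tgfbr3 and Trim33 were at least 2-fold lower, and Smurf2, a ubiquitin ligase for SMAD proteins, had 0.82 and 0.88 in TET2KD and the double mutant, against 1.52 and 1.64 in WT and JAK2V617F. Smad4, Ski, Acvr2a and Acvr1b were above by at most 0.24.

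Of 36 S phase genes measured, 8 lay below (22.2%) and 3 above. Of 32 genes of G2 and mitosis, 4 lay below (12.5%, under the 16.2% of all named genes) and 1 above, with a median of -0.33 that was 0.13 without the TET2KD array. Cdc20, an activator of the anaphase-promoting complex, had -0.17 in TET2KD and 1.38 in the double mutant, against 2.90 in WT and 2.99 in JAK2V617F. Mcm2, of the replicative helicase, had 0.47 and 0.65 in TET2KD and the double mutant, against 1.73 and 1.37 in WT and JAK2V617F. Its partner Mcm4 was above, with 5.47 and 5.57 in TET2KD and the double mutant, against 5.06 and 5.14 in WT and JAK2V617F. Members of 1 complex thus lay on opposite sides. Among antioxidant enzymes 8 of 24 lay below and 3 above. Nqo1, a quinone reductase, had -2.47 in TET2KD and -5.24 (not well above background) in the double mutant, against 1.51 in WT and -1.33 in JAK2V617F, with WT the highest array.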

How the data were processed

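Gene expression was measured on 4 one-colour Agilent mouse arrays, 1 per genotype, on 1 slide and in 1 scan session. Per the labels' protocols, LSK cells were sorted, RNA was extracted with Trizol and amplified with the NuGEN Ovation Pico system, and the cDNA was labelled with Cy3. Agilent Feature Extraction 10.7.3.1 made the deposited intensity values and subtracted background on each array alone, per the file headers. The deposited mean and local background intensity served only the normexp alternative (offset 50). The deposited log2 table matched the log2 processed signal of every probe within 0.01 after a shift per array, and was used as an alternative.

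Signals of 59305 non-control spots (55681 probes) were taken to log2 and each array's 75th percentile was subtracted. That percentile lay at a signal of 120 to 144, and 49.4% to 54.7% of spots were well above background. Outlier spots were dropped (162 to 199 per array), 0 were saturated, and 16 probes left without a value on an array were dropped. Spots of a probe were averaged, then the 30653 probes well above background on at least 2 arrays by gene. Probes were named through RefSeq tables of GRCm38.p6 (28347 by accession, 3190 by symbol, 271 by synonym); 23866 had no name. Probe coordinates are mm9, per the file headers.

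Where an array was not well above background, its value was held at the lowest signal well above background there, or its own if higher, to compute gaps and bounds ("at least"). The limma 3.58.1 fit (R 4.3.3) had additive TET2KD and JAK2V617F terms and Benjamini-Hochberg adjustment over all features, and was tested on simulated data, where it recovered none of the planted changes. With 1 array per genotype, 4 arrays limit the precision.

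Named genes were Tet2, Jak2 and the cytosine methylation list. Added to them were the 15 genes each way with the widest gap among those above background on all 4 arrays, with all probes that passed one way, the brighter side at or above the 75th percentile and the same separation with normexp, and up to 6 each way above background on 1 side only. From each list described came 2 to 4 separated members with the largest difference and those running the other way. Members singled out beyond this rule were chosen after their values were seen. Unnamed gene models and antigen receptor segments were not named. The comparison and the 43 gene lists were chosen with earlier results of these data known.

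The alternatives were normexp, scaling to the median of detected probes or by quantiles, only probes above background on all arrays, no filter, the brightest probe per gene, the deposited log2 table, dim probes at the floor, no JAK2V617F term, a trended prior, a 3-fold gap and leaving out each array.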

Additional observations from a re-analysis of the deposited data

Results flagged for a closer look

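In 5 gene lists the median difference had opposite signs on the 2 backgrounds, by more than 0.2 on the log2 scale each way. With 1 array per genotype, the difference between backgrounds was not tested. For megakaryocyte and platelet genes the median was 0.64 for TET2KD minus WT and -0.69 for double mutant minus JAK2V617F, so the second minus the first was -1.33. TGF-beta receptors and SMADs had 1.01 and -0.29, apart by -1.30. Mast cell, basophil and eosinophil genes had -0.22 and 1.09, apart by 1.31. Immediate early genes had 0.33 and -0.25, apart by -0.59, and p53 and its targets 0.21 and -0.39, apart by -0.60.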

How the results depend on the processing

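The limma fit gave 0 features in both directions under all 10 alternatives run, which says nothing about stability, since on simulated data the fit recovered no planted change. Counts of features at least 2-fold apart were 523 higher and 405 lower as reported; they were 136 and 82 with normexp, 229 and 174 over probes above background on all 4 arrays, and 197 and 141 at 3-fold. With no filter on dim probes 7059 features lay above and 6510 below. Leaving out 1 array gave 8198 to 8841 above, 8259 to 8860 below, 1245 to 2020 at least 2-fold higher and 1237 to 1842 lower, since fewer arrays are easier to separate. The median of megakaryocyte and platelet genes changed sign over probes above background on all arrays and with the brightest probe (0.055 in both), and that of TGF-beta genes with the brightest probe (-0.098). Leaving out 1 array also turned the sign of medians, which then ran from -0.43 to 0.38 for megakaryocytes and platelets, from -0.093 (without TET2KD) to 0.66 for TGF-beta, from -0.58 to 0.14 (without TET2KD) for cytosine methylation, from -0.74 to 0.13 (without TET2KD) for G2 and mitosis, from -0.62 to 0.018 (without TET2KD) for the respiratory chain, from -0.87 to 0.095 (without the double mutant) for stem cell genes, and, lowest without WT, from -0.064 to 1.17 for granulocyte and monocyte progenitors, from -0.093 to 0.41 for NF-kB and from -0.10 to 0.40 for polycomb genes. The cause was not tested. Of the 15 genes each way with the widest gap and the 6 each way with a bound, 0 changed the sign of their difference in these runs, but all 42 were smaller with normexp: the 30 measured on all arrays were then 2.04-fold to 9.65-fold apart, against 3.45-fold to 23.4-fold as reported. No paired analysis was possible because each genotype has 1 array, so no replicate numbers pair the arrays; the JAK2V617F background was instead a term of the fit, left out in 1 alternative. Between 49.4% and 54.7% of spots were well above background, which limits all low genes, and p-values measure only the spread among these 4 arrays.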

Other observations

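Genes of MHC class I presentation were split, with 3 of 18 measured members above and 4 below. Erap1, which trims peptides in the endoplasmic reticulum, was 3.1-fold lower like Tap2, with -1.97 in TET2KD and -2.02 in the double mutant, against -0.09 in WT and -0.63 in JAK2V617F. H2-T22, a non-classical class I gene, was 3.19-fold higher, with 1.06 in TET2KD and 0.44 in the double mutant, against -1.23 in WT and -0.62 in JAK2V617F. B2m, the shared light chain, had 6.25 and 6.26 in TET2KD and the double mutant, against 6.39 and 6.38 in WT and JAK2V617F.

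Splicing factor genes had 9 of 35 measured members below and 4 above. Sf3b3, of the U2 particle, had -0.38 in TET2KD and -0.19 in the double mutant, against 0.83 in WT and 0.76 in JAK2V617F. U2af2 had 0.45 and 0.34 in TET2KD and the double mutant, against 1.77 and 1.21 in WT and JAK2V617F. Among T and NK cell genes, 4 of 16 lay above and 3 below; Tbx21, the T-bet gene, had -0.27 in TET2KD and 2.31 in the double mutant, against -1.68 in WT and -1.62 in JAK2V617F. In the NF-kB list, Traf1 was 4.17-fold higher, with 0.61 and 0.42 in TET2KD and the double mutant, against -2.00 and -1.09 in WT and JAK2V617F. Bok, a BCL2 family member, was 3.23-fold lower, with -2.48 and -2.66 in TET2KD and the double mutant, against -0.56 and -1.19 in WT and JAK2V617F. Of 13 measured genes of lymphoid priming and multipotent progenitors, 4 lay above and 2 below. Ccr9, a homing receptor, was at least 5.05-fold higher, being not well above background in WT or JAK2V617F. It could therefore only differ upwards, and without it 3 of 12 members lay above. Cd52 had 3.27 in TET2KD and 3.37 in the double mutant, against 2.44 in WT and 1.04 in JAK2V617F.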
